A study of Rattus norvegicus with 6 samples.

Results

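The fatty acid oxidation genes described here are Cpt1a, Cpt2, Acadm, Acadl, Acadvl, Hadha, Hadhb, Ppara and Pdk4, 9 of the 17321 genes counted in islets of fetal Sprague Dawley rats. They were chosen by symbol, and all 9 were found and passed the filter on low counts. High glucose fetuses lay in the left uterine horn, into which glucose was infused over 48 h (4 mg/min), beginning on gestational day 20. Control fetuses lay in the dam's right horn and served as its paired internal control. What the control horn received is not given in the sources used here. All fetuses were taken at gestational day 22. Each library held islets of 2 pooled pancreata, hand-picked after collagenase and then cultured in RPMI with 5 mM glucose for 24 h. There were 3 high glucose and 3 control libraries in 3 dam pairs. RNA was therefore read after a day at the same glucose level in both groups, and horn side cannot be told apart from treatment. Sample titles and deposited file names gave opposite horn letters for 6 of 6 libraries. High glucose and control below mean the libraries with those treatment labels, and under the other naming each sign would be reversed.

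Mitochondrial beta-oxidation breaks fatty acids down to acetyl-CoA. Long chains enter the mitochondrion as carnitine esters, made by carnitine palmitoyltransferase 1 and undone by carnitine palmitoyltransferase 2, and are then shortened in repeated rounds. In beta cells, glucose raises malonyl-CoA, which inhibits carnitine palmitoyltransferase 1 and so turns the cell from burning fatty acids to burning glucose. The nuclear receptor PPAR-alpha, encoded by Ppara, drives many genes of the pathway, and the kinase encoded by Pdk4 switches off pyruvate dehydrogenase when fatty acids are used.

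RefSeq promoter windows of the GRCr8 assembly, 250 bases before to 50 after the gene start, were at hand for 8 of the 9 genes, all except Acadl. The Hadha window is shown because Hadha and Hadhb, which encode the subunits of one enzyme complex, lie head to head and share it. In the rn6 annotation used for counting, 300 bases separate them. The windows of both genes overlap over 200 bases, chr6:31907551-31907750. The Hadha window, plus strand of chr6:31907551-31907850, is printed 5′ to 3′ with the stretch shared with the Hadhb window in capitals.
Hadha: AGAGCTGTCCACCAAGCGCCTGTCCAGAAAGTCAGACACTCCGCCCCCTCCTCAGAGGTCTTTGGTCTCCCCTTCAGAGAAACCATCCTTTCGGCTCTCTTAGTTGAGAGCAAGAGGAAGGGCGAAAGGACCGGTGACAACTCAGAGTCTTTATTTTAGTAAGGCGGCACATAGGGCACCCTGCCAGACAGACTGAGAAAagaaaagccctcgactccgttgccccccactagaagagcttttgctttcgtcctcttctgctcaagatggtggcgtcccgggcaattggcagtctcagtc
PPAR-alpha binds, with its partner RXR, to repeats of AGGTCA set 1 base apart. The exact repeat (AGGTCA, any base, AGGTCA) was found on either strand in 0 of the 8 windows, and it occurs in 0.0538% of the 33469 windows of all genes. The looser form (AGGNCA, any base, AGGNCA), which includes the exact one, was likewise found in 0 of 8, against 0.415% of all windows. The single element AGGTCA, which the exact repeat contains and the looser one can contain, was in 2 of 8 windows, those of Acadvl and Hadhb, against 16.2% of all windows. In the Hadhb window it lies 42 bases after the gene start, outside the stretch shared with Hadha. The Acadvl window, minus strand of chr10:55236656-55236955, is shown because it holds this element in 2 places, starting 169 and 17 bases before the gene start and given in capitals. The site at 17 is followed, 1 base apart, by TGGTCA, which differs from AGGTCA in its first base only. Neither repeat form searched allows that change, and its share over all windows was not counted.
Acadvl: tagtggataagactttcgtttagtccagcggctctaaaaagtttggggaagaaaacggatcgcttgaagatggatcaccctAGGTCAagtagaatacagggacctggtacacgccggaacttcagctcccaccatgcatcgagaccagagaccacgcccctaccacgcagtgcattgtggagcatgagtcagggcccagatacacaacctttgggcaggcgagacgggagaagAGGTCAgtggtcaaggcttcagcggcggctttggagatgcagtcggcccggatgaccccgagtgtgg
These matches describe letters in short windows only.

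The order of transcript levels was taken from TPM, which corrects for gene length. Acadl and Hadha were the most abundant of the 9, at a mean of 217 TPM (range 170 to 291 over the 6 libraries) and 206 TPM (183 to 262). Hadhb followed at 147 TPM (87.9 to 203). By mean TPM these genes stood above 90.9% to 93.9% of the 12276 tested genes. Acadvl averaged 55.9 TPM (50.1 to 69.8), Cpt1a 51.3 TPM (36.1 to 76.3), Acadm 44.5 TPM (30.8 to 57.9) and Cpt2 29.4 TPM (22.2 to 38.1). These enzymes of the middle range were above 60.9% to 76.2% of the tested genes. Pdk4 averaged 10.2 TPM (4.35 to 20.8), and Ppara 0.536 TPM (0.0787 to 0.951), above only 3.82% of the tested genes. The 7 enzyme genes were thus well expressed, while the receptor gene Ppara was read from few counts. Some neighbours in the order were not separated. Acadl exceeded Hadha in 2 of 6 libraries, Acadvl exceeded Cpt1a in 4 of 6, and Cpt1a exceeded Acadm in 4 of 6, while the other neighbours kept their order in 6 of 6.

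**Figure D1:**
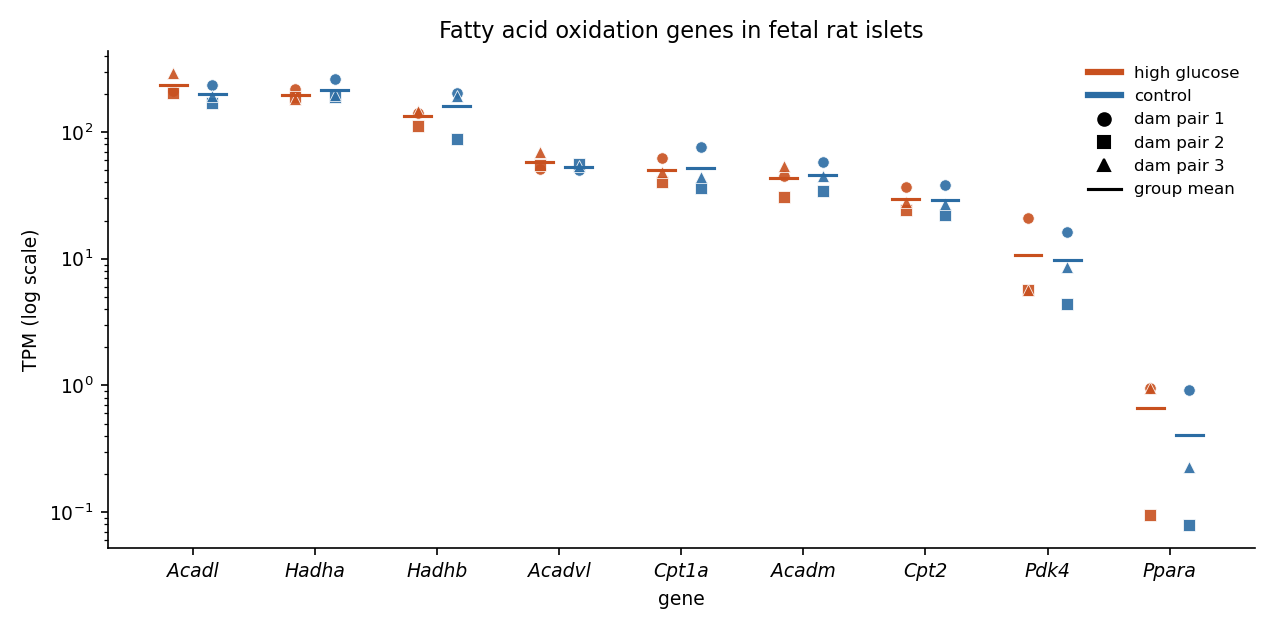
Transcript level in TPM (log axis) of the 9 genes, ordered by mean, in each high glucose library (left of each pair of columns) and each control library, with marker shape for the dam pair and a line for the group mean. The groups overlap for every gene, and levels span from about 217 TPM for Acadl to 0.536 TPM for Ppara.

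The comparison asked whether glucose infusion in late gestation changed these genes in the fetal islet. None of the 9 passed the test, and the fitted log2 differences of the 7 enzyme genes lay between -0.28 and 0.15. Of all 12276 genes tested, 2, or 0.0163%, passed with the quasi-likelihood test of edgeR with dam as a block (Benjamini-Hochberg adjusted p below 0.05), and neither was one of the 9. The number of members at an unadjusted p below 0.05 was 0 by edgeR, where 4.82% of tested genes were, and 0 by DESeq2. DESeq2 called 0 members, and 0.863% of all genes. Each of the 9 had an edgeR adjusted p of 0.9996, and the unadjusted p lay between 0.234 and 0.892. In CPM, scaled by TMM, the high glucose and control libraries overlapped for 9 of 9 genes, while 3.31% of tested genes had groups that did not overlap. The fitted log2 difference, high glucose minus control, was below 0 for 6 genes and above 0 for 3, with a median of -0.05, against 0.00 over all tested genes. A p that misses the threshold does not show that the groups were alike, so the intervals are given. For 8 of the 9 the 95% interval lay within a 2-fold change either way, as it did for 71.3% of tested genes, and Ppara was the exception.

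**Figure D2:**
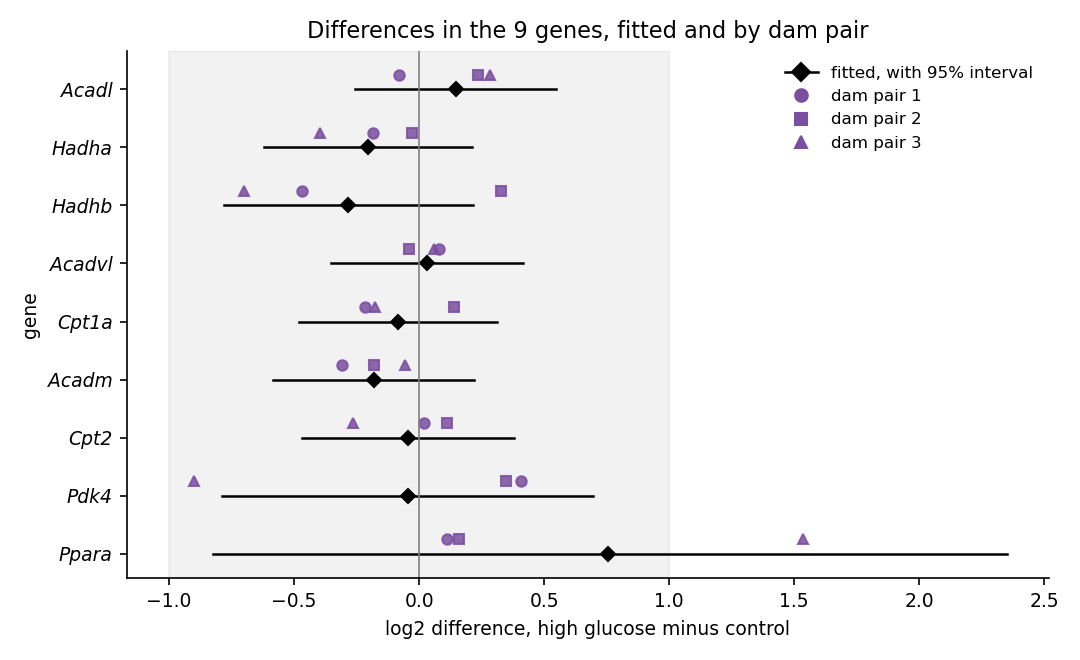
Log2 difference (high glucose minus control) for the 9 genes, ordered by mean TPM. Diamonds and lines give the fitted value and its 95% interval, purple markers the difference within each dam pair, and the grey band a 2-fold change either way. Every interval includes 0, and that of Ppara reaches from -0.82 to 2.35.

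Of the carnitine palmitoyltransferases, Cpt1a encodes the form that sets the rate of fatty acid entry (rn6 chromosome 1, 218569510 to 218629679, 19 exons). It measured 151, 134 and 112 CPM in high glucose pairs 1 to 3, against 176, 122 and 126.4 CPM in control. It was lower in high glucose in pairs 1 and 3 and higher in pair 2. The fitted log2 difference was -0.09 (SE 0.179, 95% interval -0.48 to 0.31, edgeR adjusted p = 0.9996), so a fall beyond 0.716-fold or a rise beyond 1.24-fold lay outside the interval. Cpt2, the inner membrane enzyme that returns the acyl group to coenzyme A (chromosome 5, 127505646 to 127523016, 5 exons), measured 47.4, 42.7 and 34.3 CPM in high glucose, against 46.7, 39.6 and 41.2 CPM in control. The differences had both signs, and the fitted value was -0.04 (95% interval -0.47 to 0.38).

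The acyl-CoA dehydrogenases carry out the first step of each round, and differ in the chain length they prefer. Acadvl, for very long chains (chromosome 10, 56619321 to 56624468, 20 exons), measured 59.4, 88.7 and 78.4 CPM in high glucose, against 56.2, 91.2 and 75.4 CPM in control. The libraries of one dam lay close together, and the largest difference within a pair was 0.08 on the log2 scale. The fitted value was 0.03 (95% interval -0.35 to 0.42). Acadl, for long chains (chromosome 9, 73833368 to 73871854, 11 exons), measured 172, 225 and 225 CPM in high glucose, against 182, 191 and 185 CPM in control. It was higher in high glucose in pairs 2 and 3 and lower in pair 1, with a fitted value of 0.15 (95% interval -0.26 to 0.55). Acadm, for medium chains (chromosome 2, 260124418 to 260148589, 12 exons), measured 48.7, 46.0 and 56.4 CPM in high glucose, against 60.3, 52.1 and 58.6 CPM in control. It was lower in high glucose in 3 of 3 pairs, by 0.31, 0.18 and 0.06 on the log2 scale, with a fitted value of -0.18 (95% interval -0.58 to 0.22, edgeR adjusted p = 0.9996). The TPM ratio of Acadl to Acadm was 4.75, 6.60 and 5.39 in high glucose, against 4.06, 4.95 and 4.26 in control, and so was higher in high glucose within 3 of 3 pairs with overlapping groups. This ratio was picked after its values were seen and was not tested.

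Hadha and Hadhb, the alpha and beta subunits of the mitochondrial trifunctional protein, complete the rounds on long chains. Hadha, which carries the hydratase and hydroxyacyl-CoA dehydrogenase activities (chromosome 6, 27589840 to 27628921, 20 exons), measured 309, 363 and 246 CPM in high glucose, against 351, 371 and 324 CPM in control. It was lower in high glucose in 3 of 3 pairs, by 0.19, 0.03 and 0.40 on the log2 scale, with a fitted value of -0.20 (SE 0.188, 95% interval -0.62 to 0.21, edgeR adjusted p = 0.9996). Hadhb, the thiolase subunit (chromosome 6, 27555408 to 27589539, 16 exons), measured 156, 171 and 157 CPM in high glucose, against 216, 136 and 255 CPM in control. It was lower in high glucose in pairs 1 and 3 and higher in pair 2, with a fitted value of -0.28 (SE 0.224, 95% interval -0.78 to 0.21, edgeR adjusted p = 0.9996). Without pair 2 the fitted value was -0.58, with an unadjusted p of 0.0323 and an adjusted p of 0.731 by edgeR. The difference was -0.19 without pair 1 and -0.07 without pair 3. Although the subunits share a start region, their TPM ratio was not fixed. Hadha over Hadhb was 1.57, 1.69 and 1.25 in high glucose, against 1.29, 2.16 and 1.01 in control, with means of 1.501 ± 0.229 and 1.49 ± 0.600 (SD, n = 3 each).

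Counting the 9 genes by direction gave 2 that were lower in high glucose in 3 of 3 pairs, Hadha and Acadm, where 11.3% of all tested genes were lower. Ppara alone was higher in 3 of 3 pairs, where 11.7% of all genes were higher, and the other 6 had both signs.

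Ppara, the receptor gene (chromosome 7, 126619196 to 126681752, 8 exons), had 34, 3 and 33 read pairs in high glucose, against 34, 2 and 9 in control. Scaled, these were 1.07, 0.147 and 1.03 CPM in high glucose, against 0.985, 0.124 and 0.307 CPM in control. Pair 1 was nearly level, pair 2 was at a few reads in both groups, and pair 3 held the largest difference, 1.53 on the log2 scale. The fitted value of 0.75 (SE 0.716, 95% interval -0.82 to 2.35, edgeR adjusted p = 0.9996) was 0.15 without pair 3. At these counts the interval reached beyond a 2-fold rise. Pdk4 (chromosome 4, 30546772 to 30556774, 11 exons) measured 16.5, 6.15 and 4.33 CPM in high glucose, against 12.5, 4.82 and 8.15 CPM in control. It was higher in high glucose by 0.41 and 0.35 on the log2 scale in pairs 1 and 2, and lower by 0.90 in pair 3. The group means were 9.01 ± 6.59 CPM in high glucose and 8.48 ± 3.83 CPM in control (SD, n = 3 each), above 0 as a difference, while the fit with dam as a block gave -0.05 (SE 0.334, 95% interval -0.79 to 0.70, edgeR adjusted p = 0.9996). Without pair 3 the fitted value was 0.38 (edgeR adjusted p = 0.999).

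The make-up of the enzyme families was compared in TPM. Cpt1a supplied 92.0%, 88.6% and 85.4% of the TPM of the carnitine palmitoyltransferase 1 genes in high glucose, against 91.9%, 87.9% and 88.5% in control. Cpt1c, the form known from brain, averaged 5.03 TPM, and Cpt1b, the muscle form, 1.03 TPM. Their fitted log2 differences were 0.08 (95% interval -0.52 to 0.68) and -0.22 (-1.35 to 0.91). Pdk4 was the least abundant of the pyruvate dehydrogenase kinase genes, with 17.1%, 6.29% and 4.32% of their TPM in high glucose, against 16.1%, 4.99% and 7.01% in control. The highest shares were those of dam pair 1 in both groups. Pdk3 averaged 40.3 TPM, Pdk1, a target of the hypoxia response, 29.6 TPM and Pdk2 29.0 TPM. Their fitted log2 differences of 0.05, 0.13 and -0.04 did not pass (edgeR adjusted p = 0.9996 each).

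**Figure D3:**
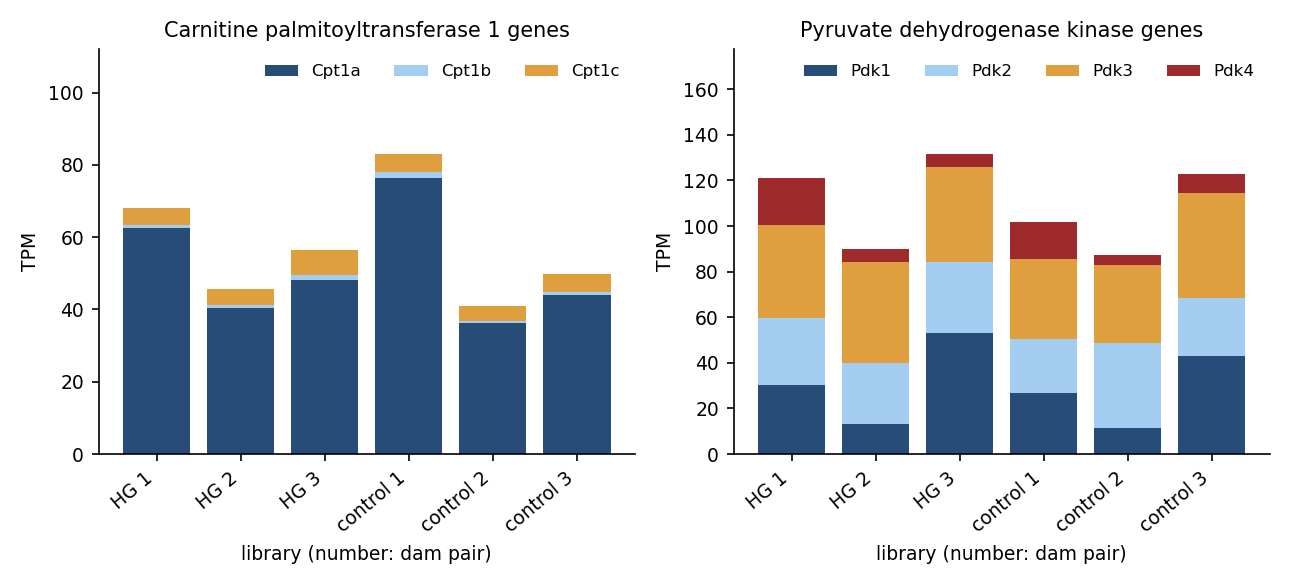
TPM of the carnitine palmitoyltransferase 1 genes (left) and of the pyruvate dehydrogenase kinase genes (right), stacked for each high glucose (HG) and control library, numbered by dam pair. Cpt1a makes up 85.4% to 92.0% of its family in every library, and Pdk4 is largest in both libraries of pair 1.

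The share of variation that went with dam was larger than that with treatment for each of the 9 genes. Dam has more levels than treatment, so part of this order is built into the design. Of the variation in log2 CPM over the 6 libraries, dam took 98.7% for Acadvl, 83.5% for Ppara, 82.3% for Cpt1a, 81.1% for Pdk4 and 72.2% for Cpt2. The median over all tested genes was 72.4% for dam and 4.66% for treatment. The dam share was lower for Hadha (60.0%), Acadl (48.7%), Acadm (45.3%) and Hadhb (27.9%). Treatment took 41.3% for Acadm, 25.9% for Hadha, 23.0% for Acadl and 20.8% for Hadhb. For Hadhb the largest part, 51.3%, was left to neither. The mean CPM of the highest dam exceeded that of the lowest by 7.6-fold for Ppara, 2.64-fold for Pdk4 and 1.17-fold to 1.56-fold for the 7 enzyme genes. These shares describe the libraries and carry no test, and dam cannot be told apart from the handling of each dam's islets.

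Total counts were 18077841 to 30993532 per library. The marker lists of the islet are given as summed CPM. Beta cell genes held 4923 to 18554 CPM in high glucose and 11148 to 22778 CPM in control, and alpha cell genes 1096 to 4415 CPM and 1866 to 4605 CPM. Mesenchyme genes held 21436 to 30470 CPM and 15582 to 36251 CPM, most of it from collagen genes. Markers of fat, liver and muscle, which are rich in beta-oxidation, were present in part. The fat cell genes Plin1, Ucp1, Lep and Retn, the liver gene Tat and the muscle genes Ckm, Myh3, Tnnc2, Actc1 and Myh6 had at most 10 read pairs in any library, and the liver genes Apoa2 and Cyp2e1 had 0. Other genes of these lists were read in each library, except the liver gene Fga. Fga had 1 to 15 read pairs in high glucose, and 52, 0 and 5 in control pairs 1 to 3. The fat cell genes Lipe and Cidec had 175 to 654 and 224 to 553 read pairs in high glucose, against 229 to 456 and 159 to 470 in control. The liver genes Fgb and Alb had 131 to 784 and 31 to 152 in high glucose, against 148 to 518 and 26 to 46 in control. The muscle genes Tnnt2 and Acta1 had 499 to 685 and 66 to 224 in high glucose, against 255 to 684 and 60 to 185 in control. In summed CPM the fat cell list held 20.5 to 41.4 in high glucose and 25.3 to 28.0 in control, and the muscle list 23.5 to 28.9 and 13.6 to 47.2. The liver list held 94.2 to 180 and 93.8 to 113, most of it Serpina1. The control library of pair 1 alone held Apoa1 in number, at 35.0 CPM, a value picked after it was seen, and its part in the differences of pair 1 was not tested. In such bulk samples, fewer cells of a type and less RNA per cell cannot be told apart.

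Cell type markers differed between the libraries of a pair. The median log2 difference of the beta cell list (8 genes) was 0.87, -0.13 and -2.39 in pairs 1 to 3, and that of the alpha cell list (5 genes) 0.36, 0.23 and -1.24. That of the acinar list (7 genes) was -0.26, 0.50 and 4.05. The immune list (8 genes) was lower in each pair, at -0.60, -0.36 and -1.27, and so was the erythroid list (5 genes), at -4.58, -1.34 and -3.50. The summed immune level was 507 to 792 CPM in high glucose and 864 to 1152 CPM in control, while the erythroid sums of 86.7 to 632 and 391 to 1551 CPM overlapped. Duct genes (6) had medians of 1.41, 0.35 and 0.64, and endothelial genes (7) -0.34, -1.25 and -0.30. Beside these, Pdk4 had 0.41, 0.35 and -0.90, and Hadhb -0.47, 0.33 and -0.70. Hadh, the short-chain hydroxyacyl-CoA dehydrogenase that restrains insulin release in beta cells and is no member of the 9, had 0.23, 0.03 and -1.33. Its fitted value of -0.35 (95% interval -1.09 to 0.39) was 0.13 without pair 3. The part of cell make-up in the differences of these genes was not tested.

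**Figure D4:**
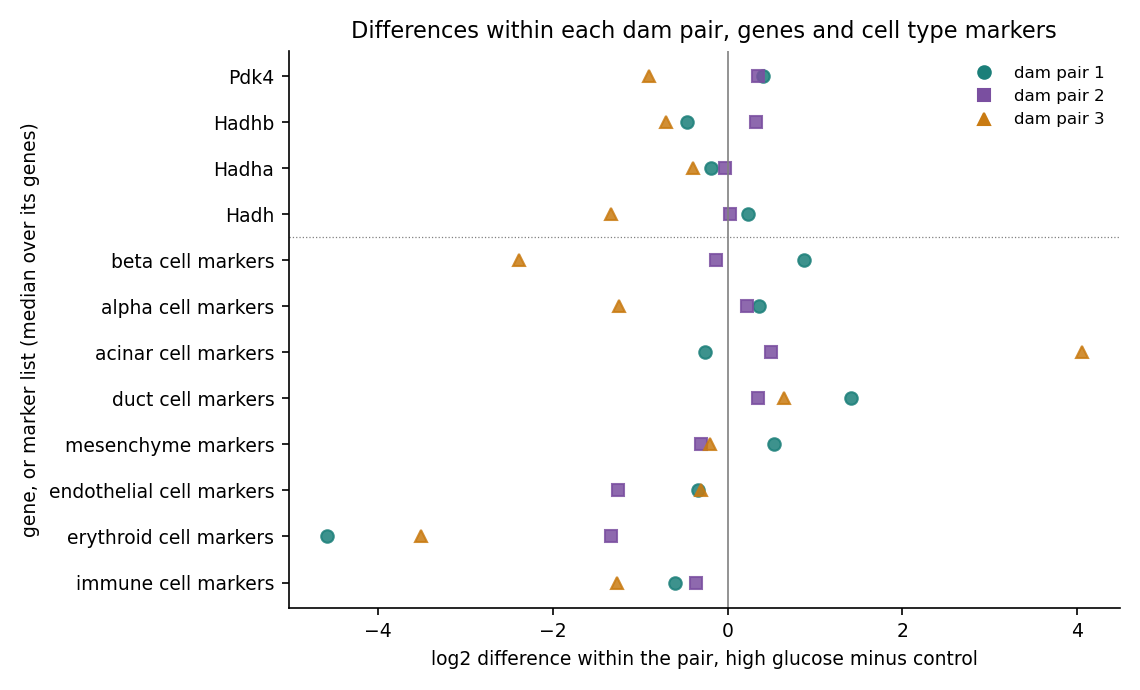
Log2 difference within each dam pair (high glucose minus control) for Pdk4, Hadhb, Hadha and Hadh and, below the dotted line, the median over the genes of each cell type marker list. In pair 3 Pdk4, Hadhb and Hadh lie at -0.90, -0.70 and -1.33, the beta cell list at -2.39 and the acinar list at 4.05.

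A further 135 genes of fatty acid and pyruvate metabolism in 10 lists were read from the same fit. Of these, 134 were in the files, all but 11 of them were tested, and 0 passed by edgeR. At an unadjusted p below 0.05 there were 4, among them Prkaa2, Cd36 and Acsl4, against 4.82% of all tested genes, and DESeq2 called 1. Over the tested ones the log2 difference had a median of -0.07, and in 3 of 3 pairs 15 were lower and 13 higher in high glucose.

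Of the ketone body enzymes, 0 of the 6 genes tested passed, with a median of -0.16. Acat1 averaged 59.8 TPM and Oxct1, which uses ketone bodies, 50.03 TPM.

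Among regulators of the pathway, 0 of 20 tested genes passed, with a median of -0.02. Prkaa2, a catalytic subunit of the energy sensor AMPK, had 95, 17 and 84 read pairs in high glucose, against 42, 0 and 24 in control. It was higher in high glucose in 3 of 3 pairs, with a fitted value of 1.97 (SE 0.689, unadjusted p = 0.0163, edgeR adjusted p = 0.792) that depends on the prior count where a library is at 0. Nrip1, a corepressor of nuclear receptors, had 0.34 (95% interval -0.10 to 0.78). Stk11, the kinase upstream of AMPK, averaged 43.6 TPM, and Ppard, the relative of Ppara, 39.4 TPM, far above the 0.536 TPM of Ppara.

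Other genes that PPAR receptors are known to drive had a median of -0.32 over the 8 tested, and 0 passed. Of the fitted values 7 were below 0 and 1 above, and the medians by pair were -0.82, -0.16 and -0.08 in pairs 1 to 3. In 3 of 3 pairs 3 of the 8 were lower and 0 higher, where 11.3% of all tested genes were lower and 11.7% higher. Acot1, an acyl-CoA thioesterase, measured 1.12 ± 0.316 CPM in high glucose and 2.08 ± 0.501 CPM in control (SD, n = 3 each), a fitted difference of -0.91 (95% interval -1.99 to 0.17). Ucp2 averaged 294 TPM, and the lipid droplet gene Plin2 191 TPM with a fitted value of -0.32 (95% interval -0.77 to 0.13). The rat genes Cyp4a1, Cyp4a2 and Cyp4a3, targets of PPAR-alpha in liver, had 0 read pairs in each library, and 7 of the 15 genes of this list were not tested because of low counts.

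In fatty acid uptake and activation, 0 of 11 tested genes passed, with a median of -0.10. Cd36, the fatty acid transporter, measured 15.1 ± 9.36 CPM in high glucose and 22.4 ± 12.6 CPM in control, a fitted difference of -0.60 (95% interval -1.12 to -0.08, unadjusted p = 0.0278, edgeR adjusted p = 0.902). Cd36 overlaps another gene on the same strand in the counting annotation, so its count is uncertain. Acsl4, which activates long chains and prefers arachidonate, measured 149 ± 62.2 CPM in high glucose and 109 ± 44.0 CPM in control, a fitted difference of 0.43 (95% interval 0.01 to 0.86, unadjusted p = 0.0469, edgeR adjusted p = 0.9996). The fatty acid binding protein genes Fabp5 and Fabp4 were the most abundant of the list, at 762 and 174 TPM.

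In carnitine transport, 0 of 6 genes passed, with a median of -0.07. Slc25a20, the carrier that takes acylcarnitine across the inner membrane, averaged 61.8 TPM and was lower in high glucose in 3 of 3 pairs (-0.40, -0.06 and -0.61), with a fitted value of -0.36 (95% interval -0.77 to 0.06, edgeR adjusted p = 0.9996). Crat, the carnitine acetyltransferase, averaged 48.9 TPM, and Crot, which serves peroxisomal products, had a fitted value of 0.19 (95% interval -0.25 to 0.63). Of the other mitochondrial beta-oxidation enzymes, 0 of 14 tested genes passed, with a median of -0.16 and 11 of 14 fitted values below 0. Their medians by pair had both signs, at -0.15, 0.06 and -0.30 in pairs 1 to 3. Acaa2, the thiolase for shorter chains, had -0.37 (95% interval -0.79 to 0.05), and Acad10, another acyl-CoA dehydrogenase, 0.54 (-0.16 to 1.23). Etfb, a subunit of the electron acceptor of the dehydrogenases, averaged 164 TPM and Hsd17b10 160 TPM. Echs1, the short-chain hydratase, had 2 read pairs over all libraries. The counting annotation places it at 2 loci of rn6 chromosome 1 (141821940 to 141830767 and 212570213 to 212579040), so its level cannot be read here.

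Peroxisomal beta-oxidation had 0 of 13 tested genes passing, and a median of -0.15. In 3 of 3 pairs 4 of the 13 were lower and 0 higher, where 11.3% of all tested genes were lower and 11.7% higher. Acaa1a, the peroxisomal thiolase, had -0.43 (95% interval -0.87 to 0.01), and Acot8, a peroxisomal thioesterase, -0.53 (-1.17 to 0.11). Hsd17b4 and Scp2 were the most abundant of the list, at 69.6 and 66.2 TPM. In the pyruvate dehydrogenase system 0 of 14 genes passed, with a median of 0.01. Mpc1 and Mpc2, which form the mitochondrial pyruvate carrier, averaged 100 and 77.6 TPM, with -0.30 for Mpc2 (95% interval -0.81 to 0.20). Pc, the carboxylase that feeds oxaloacetate from pyruvate in islets, had -0.28 (-0.82 to 0.26). Fatty acid synthesis had 0 of 13 tested genes passing and a median of 0.14, with 10 of 13 fitted values above 0. Its medians by pair had both signs, at 0.28, 0.24 and -0.48 in pairs 1 to 3. Srebf1, the factor that drives lipogenic genes, had 0.25 (-0.15 to 0.66) and Acss2, the acetyl-CoA synthetase, -0.33 (-0.86 to 0.20). Scd2 and Acly were the most abundant, at 230 and 118 TPM. As a measure of mitochondrial content, 18 genes of other mitochondrial functions were read. None passed by edgeR, with 0 at an unadjusted p below 0.05, a median of -0.06 and a range of -0.22 to 0.09. Mdh2 and Tomm20 led it at 411 and 374 TPM, and Tomm40 and Fh had -0.22 and -0.18. In pairs 1 to 3 the median was 0.003, 0.014 and -0.22 for these 18 genes, and -0.08, 0.14 and -0.18 for the 9 genes. For the other mitochondrial beta-oxidation enzymes it was -0.15, 0.06 and -0.30, against 0.001, 0.020 and -0.016 over all tested genes.

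**Figure D5:**
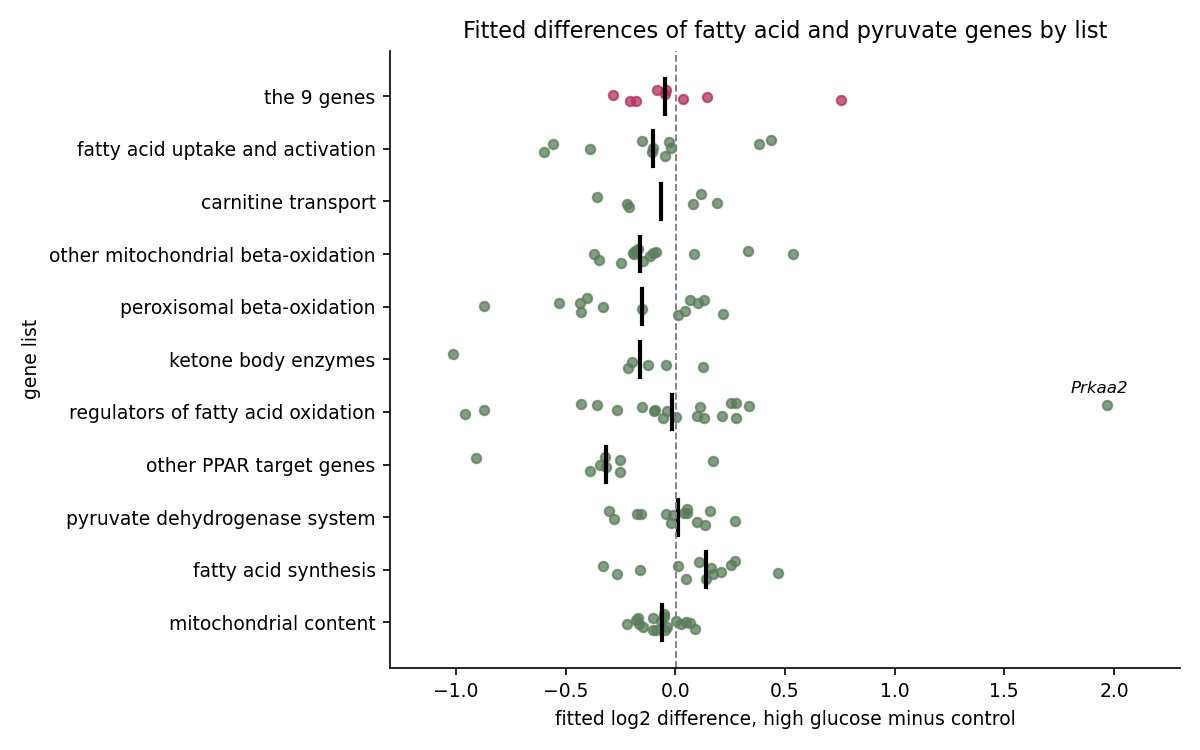
Fitted log2 difference (high glucose minus control) of each tested gene, by list, with a black bar for the list median and a dashed line for the median of all tested genes. Medians run from -0.32 for other PPAR target genes to 0.14 for fatty acid synthesis, and Prkaa2 (1.97) has the highest value.

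The genes whose log2 CPM over the 6 libraries, centred on its mean, lay nearest to that of a member were sought among 11013 to 11014 genes with a mean count of at least 50. For Cpt1a these were Hspa9, a mitochondrial chaperone, Ctns and Snrnp200, with root mean square differences of 0.05, 0.07 and 0.07 on the log2 scale. For Pdk4 they were Hcn3, Elovl2 and Rab27a, with differences of 0.14, 0.15 and 0.16. Hcn3, the nearest, measured 5.94, 2.88 and 1.87 CPM in high glucose, against 5.24, 1.73 and 3.44 CPM in control. Rab27a measured 58.4, 19.0 and 15.2 CPM in high glucose, against 40.3, 17.6 and 35.8 CPM in control. For Ppara they were Pappa1, Ppip5k2 and Slc4a4, each with a difference of 0.17 to 0.18. The Ppara pattern rests on 2 to 34 read pairs per library. The 6 libraries share 3 dams, so these are descriptions with no test.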

How the data were processed

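The 6 RNA-seq libraries were deposited as raw counts. Per the file headers, the authors ran featureCounts 1.5.1 on read pairs (reverse strand, minimum mapping quality 10, refGene annotation of rn6). STAR 2.5 and edgeR 3.12.1 are named in the submitters' processing notes. Reads that map equally well to several places are lost to the quality minimum. TPM was computed from the counts and the deposited exon lengths, and CPM with TMM-scaled library sizes.

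The test was the robust quasi-likelihood F-test of edgeR 4.0.16 (R 4.3.3) after filterByExpr and TMM, with a term for dam and one for treatment. Genes passed at a Benjamini-Hochberg adjusted p below 0.05 over 12276 genes. These genes hold 99.95% of the counts. Standard errors were derived from the F statistic and the coefficient fitted without a prior count, so they and the intervals restate the test. Intervals are centred on that coefficient, while the fitted log2 differences use a prior count of 0.125. Differences by pair use log2 CPM with a prior count of 2. DESeq2 1.42.0 and other settings were tried as alternatives, and the procedure was tested on simulated data. The dam pairing comes from the series design and the shared stems of the titles. Deviations from the group means correlated at 0.474, 0.621 and 0.413 across genes within dams. No pair of libraries in a group matched within counting noise. Labels do not say whether pools were independent beyond the dam.

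Members and lists were chosen with earlier results of these data known. The text names the 9 members, Hadh and the Cpt1 and Pdk relatives. In each list it names the 2 genes with the highest mean TPM and the 2 with the smallest p, and for Cpt1a, Ppara and Pdk4 the 3 nearest patterns. The ratios, Echs1 and the Cyp4a genes were chosen after their values were seen. Of the listed symbols, 5 were not matched and are not analysed here. Values of a few genes that the naming rule selects are left out of the text. Sequences are from RefSeq (GRCr8), and no coordinates were converted between builds.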

Additional observations from a re-analysis of the deposited data

How the results depend on the processing

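None of the 9 genes was called under any alternative tried (RLE or upper-quartile factors, no filter, DESeq2, no block, leaving out acinar, erythroid, hepatocyte and muscle genes, or 1 dam pair). Their median log2 difference of -0.05 lay between -0.18 and 0.02 without 1 pair, and from -0.07 to -0.04 under the rest. The count of genes called over all genes was 2. It was 0 with no replicate block (192 at an unadjusted p below 0.05), 4 with upper-quartile factors, 18 with no filter, 106 with DESeq2 and 18 to 55 without 1 pair. The count of other pathway genes called was 0 and became 1 with DESeq2. The sign changed for Pdk4 with no replicate block (0.085). It also changed for some single pair left out, with ranges of -0.30 to 0.38 for Pdk4, -0.12 to 0.067 for Cpt2, -0.54 to 0.23 for Cpt1b, -0.25 to 0.17 for Pdk2, -0.088 to 0.31 for Pdk3 and -0.66 to 0.13 for Hadh. The cause was not tested. The fit with no replicate block changed no call for a named gene. Without pair 1, Ppara did not pass the filter and has no value. Depth limits Ppara most, with 2 to 34 read pairs per library.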
